A study of Mus musculus with 8 samples.

Results

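Potassium channel genes were examined for regions whose chromatin accessibility differed between Chd4-CMko and wild-type (WT) mouse hearts at E10.5, midway through embryonic development. The genes were all protein-coding genes of the GENCODE M21 annotation (mm10) whose symbol starts with Kcn, which gave 94 of 21951 protein-coding genes. A peak was assigned to a gene if the gene held its nearest protein-coding transcription start site (TSS), or if it lay within 10 kb of the gene body. Of 15736 listed peaks, 175 belonged to these genes. Accessibility was measured by ATAC-seq, in which Tn5 transposase cuts and tags open chromatin. There were 4 WT and 4 Chd4-CMko samples, and each sample was a pool of hearts. The sample protocol gives 4 hearts per pool and the series text gives 3. The study's methods also give 3 for E10.5 hearts. In Chd4-CMko hearts, floxed Chd4 alleles are deleted by Cre under the cardiac troponin T promoter (Tnnt2-Cre), so the deletion is in cardiomyocytes. Control littermates served as WT, and no treatment was given. Whole hearts were dissociated, so endocardial, epicardial and mesenchymal cells that keep Chd4 were also in each pool. CHD4 is the ATPase of the NuRD complex, a remodeler known for gene repression.

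The files hold 2 peak lists, 1 for each direction of change, called over the samples of a genotype together. The gained list holds 12991 peaks that were more accessible in Chd4-CMko hearts, and the lost list holds 2745 peaks that were more accessible in WT hearts. Neither list has a value per sample, so the spread between replicates, the reads behind each peak and its fold change cannot be read from them, and no difference between genotypes could be tested. The tissue label could not be checked against marker expression. Each peak has a score whose scale is not stated, and scores were compared only within a list. The exception is 1 alternative setting that applied the median score of the lost list to both lists. Intervals cover counting error only, and neighbouring genes and peaks are not independent replicates. A fraction of cells becoming accessible and each cell becoming more accessible cannot be told apart in pooled hearts.

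Potassium channels let potassium ions leave the cell and so set the resting potential and end the action potential. In the heart, transient outward and delayed rectifier channels repolarise the cardiomyocyte, and inward rectifiers hold it at rest between beats. Neurons use relatives of the same families to time firing, to damp excitability through G-protein or calcium signals, and to shape spikes in axons. Most pores are built from voltage-gated, inward-rectifier or tandem-pore subunits, and small auxiliary proteins change their gating and traffic to the membrane.

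The sequences of the highest-scoring peaks are shown because they carry the strongest entries of either list at these genes. All are mm10, plus strand, and capitals mark matches to consensus strings that are spelled out with the motif counts. Annotated UTR bases at the edge of a peak were left off. The gained peaks of Kcnh2 (score 414), Kcnq1 (314.5), Kcnk3 (233.5) and Kcnip2 (229.5) were the highest among genes with a known role in the cardiac action potential, taking the best peak of each gene. The Kcnh2 and Kcnq1 peaks covered an annotated TSS, and those of Kcnk3 and Kcnip2 lay 75 and 34 bp upstream of one. The fifth gene by its best peak was Kcnj12 (182.5), whose peak began 8 bp inside the gene and was UTR throughout, so its sequence is not printed.
Kcnh2 chr5:24329592-24329677: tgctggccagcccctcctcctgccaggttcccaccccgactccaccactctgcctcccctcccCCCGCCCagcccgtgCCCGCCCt
Kcnq1 chr7:143107184-143107253: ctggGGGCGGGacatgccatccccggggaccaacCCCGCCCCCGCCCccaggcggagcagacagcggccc
Kcnk3 chr5:30587945-30588095: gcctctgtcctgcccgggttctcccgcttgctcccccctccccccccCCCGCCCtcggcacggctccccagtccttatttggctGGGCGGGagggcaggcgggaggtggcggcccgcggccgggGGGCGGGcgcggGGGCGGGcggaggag
Kcnip2 chr19:45816095-45816245: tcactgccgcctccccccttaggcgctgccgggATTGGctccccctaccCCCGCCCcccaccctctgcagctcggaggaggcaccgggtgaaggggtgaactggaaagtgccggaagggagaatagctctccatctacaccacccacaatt

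Among the highest gained peaks of genes known mainly from neurons were those at Kcnj6 (311), Kcnn1 (296.5), Kcnb2 (269) and Kcnh3 (220.5). Those of Kcnb2 and Kcnh3 lay 345 and 229 bp from the gene's TSS, and the sequences of the first 3 are shown. The Kcnj6 peak was intronic, 95637 bp from a Kcnj6 TSS, with the Dyrk1a TSS slightly closer at 91989 bp. The Kcnn1 peak was in an annotated exon 5381 bp outside Kcnn1, and Ccdc124 had the nearest TSS.
Kcnj6 chr16:94760885-94761035: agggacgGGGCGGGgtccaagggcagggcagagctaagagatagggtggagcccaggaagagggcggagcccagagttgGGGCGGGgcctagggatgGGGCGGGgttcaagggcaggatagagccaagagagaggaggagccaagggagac
Kcnn1 chr8:70868639-70868789: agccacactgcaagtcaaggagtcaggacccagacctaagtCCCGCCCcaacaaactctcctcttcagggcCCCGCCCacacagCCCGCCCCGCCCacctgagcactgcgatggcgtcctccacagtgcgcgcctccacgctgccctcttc
Kcnb2 chr1:15286759-15286909: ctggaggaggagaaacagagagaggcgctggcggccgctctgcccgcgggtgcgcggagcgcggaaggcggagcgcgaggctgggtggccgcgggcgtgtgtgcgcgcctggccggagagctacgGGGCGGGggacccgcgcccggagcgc

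The 2 highest of the remaining gained peaks were at Kcnj10 (485.5) and Kcnip3 (475), and both covered a TSS of the gene. Kcnj10 encodes the inward rectifier of glia and the inner ear, and Kcnip3 a calcium-binding channel partner that can also repress transcription. Their scores were the highest of the gained peaks at potassium channel genes.
Kcnj10 chr1:172341124-172341209: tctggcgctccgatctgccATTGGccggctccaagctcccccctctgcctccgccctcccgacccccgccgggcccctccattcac
Kcnip3 chr2:127482500-127482648: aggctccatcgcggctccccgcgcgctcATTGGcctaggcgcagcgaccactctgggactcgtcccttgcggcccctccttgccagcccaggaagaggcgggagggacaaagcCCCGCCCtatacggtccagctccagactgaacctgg

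The 5 highest lost peaks were at Kcnh8 (99.2), Kcnk2 (82), Kcnab1 (63.9), Kcnj15 (52) and Kcnk5 (50.2), and the sequences of the last 4 are shown.
Kcnk2 chr1:189215290-189215440: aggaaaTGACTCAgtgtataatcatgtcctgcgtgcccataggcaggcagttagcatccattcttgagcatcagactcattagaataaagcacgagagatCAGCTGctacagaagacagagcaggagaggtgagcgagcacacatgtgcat
Kcnab1 chr3:65135329-65135479: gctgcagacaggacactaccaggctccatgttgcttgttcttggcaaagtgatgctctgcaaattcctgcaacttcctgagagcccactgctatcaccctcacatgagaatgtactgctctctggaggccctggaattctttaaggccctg
Kcnj15 chr16:95264347-95264497: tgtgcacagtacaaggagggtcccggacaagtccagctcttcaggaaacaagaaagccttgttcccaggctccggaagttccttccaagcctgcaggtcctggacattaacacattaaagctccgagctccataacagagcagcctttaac
Kcnk5 chr14:20154243-20154393: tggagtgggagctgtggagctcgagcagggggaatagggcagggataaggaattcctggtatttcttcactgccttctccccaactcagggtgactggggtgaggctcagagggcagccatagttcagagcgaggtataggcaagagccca

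The Kcnh8 lost peak lies 173304 bp outside the gene, and all of its bases are marked as repeats in the reference. Of the lost peaks shown, only that of Kcnk2 held a consensus string, an AP-1 and an E-box match.

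Most potassium channel genes had a region that gained accessibility. At least 1 gained peak was assigned to 75 of 94 genes (79.8%, Wilson 95% interval 70.6 to 86.7), beside 37.4% of all protein-coding genes. Within 10 kb of the gene body alone, 64 genes had a gained peak, beside 30.3% of all genes, and inside the body alone 46, beside 20.3%. With scores at or above the list's median the number was 53, beside 24.7%. A lost peak was assigned to 13 genes (13.8%, 8.26 to 22.2), beside 10.8% of all genes. The number with a lost peak was 7 within 10 kb of the gene body alone (7.3% of all genes), 6 in the gene body alone (5.74% of all genes) and 8 with scores at or above the list's median (6.1% of all genes). The genes held 160 gained and 15 lost peaks, and gained peaks made up 91.4% of them (86.3 to 94.7), beside 82.6% of all listed peaks. Of the gained peaks, 20 were assigned by the 10 kb window only, and a gene outside the set held their nearest protein-coding TSS. Gained peaks numbered 1 at 37 genes, 2 at 14, 3 at 8 and 4 or more at 16. With 3 or more gained peaks there were 24 genes, and the background of that count was 7.81%. Gained and lost peaks occurred together at 12 genes, against a background of 6.36%. Kcnab1 alone had a lost peak without a gained one, and 18 genes had neither.

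**Figure D1:**
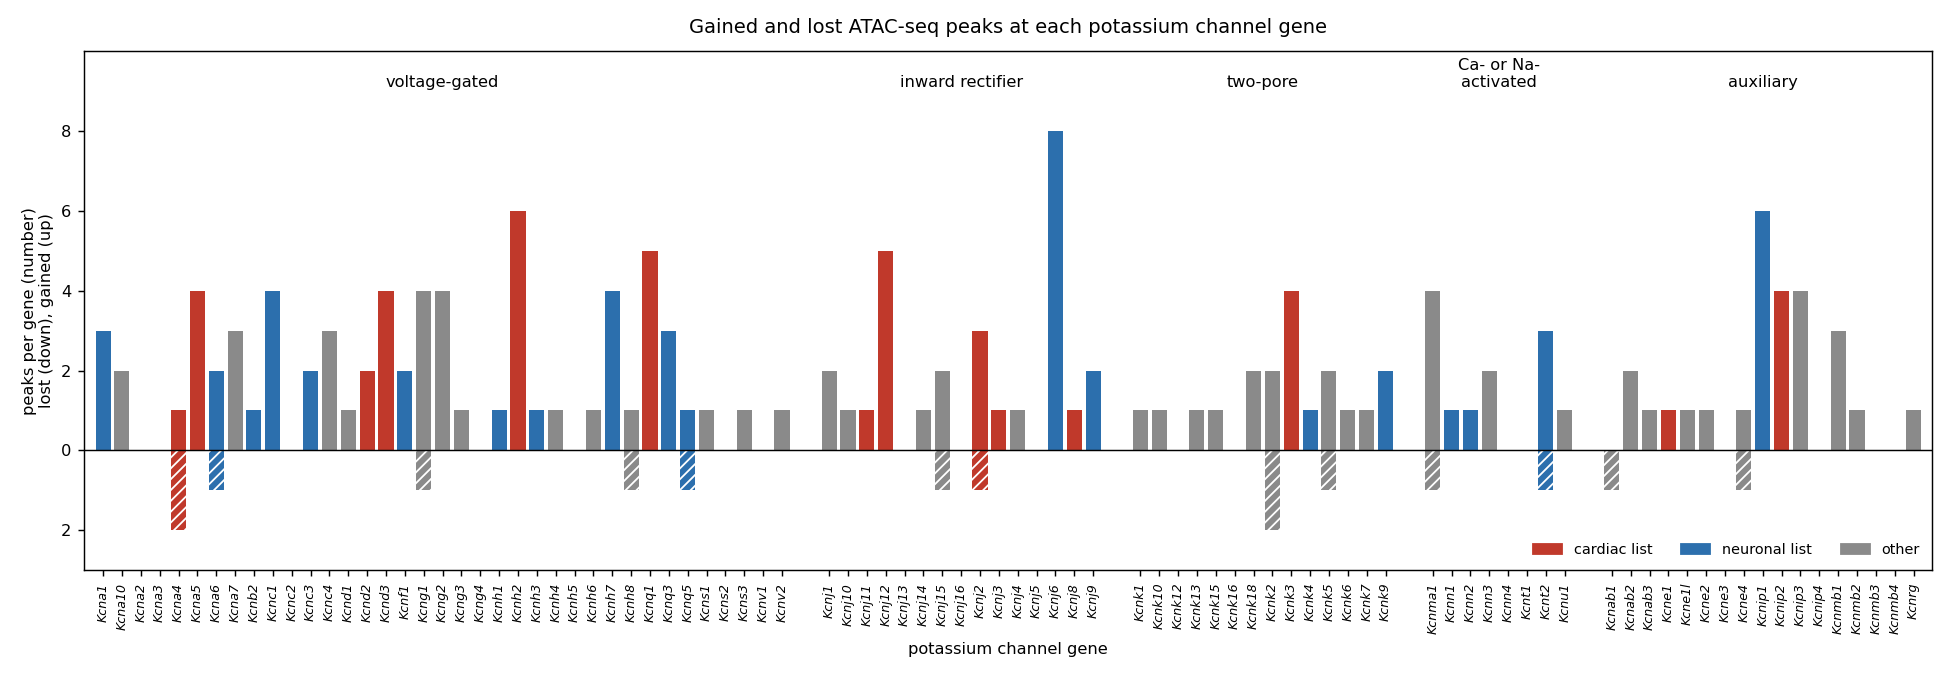
Number of gained peaks (upward bars) and lost peaks (hatched downward bars) at each of 91 of the 94 potassium channel genes, grouped by family and coloured by cardiac, neuronal or other list. Kcnj6 had the most gained peaks (8), followed by Kcnh2 and Kcnip1 (6 each, of which 3 at Kcnip1 were shared with Kcnmb1), and no gene had more than 2 lost peaks.

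Gene length moved with the number of peaks over all genes, with a Spearman rho of 0.31, and less so over the 94 potassium channel genes (rho 0.20). Both are descriptions across genes that share the same peak lists. Potassium channel genes were longer, with a median of 30.8 kb against 17.4 kb. Within length classes, the share with a gained peak was 73.9% (53.5 to 87.5) for potassium channel genes up to 10 kb and 23.9% for all genes of that size. From 10 to 50 kb it was 85.7% (70.6 to 93.7) against 36.6%. From 50 to 200 kb it was 72.2% (49.1 to 87.5) against 56.1%, and above 200 kb it was 83.3% (60.8 to 94.2) against 75.3%. The interval lay above the background in both classes up to 50 kb. In the longer classes, with 18 potassium channel genes each, the share was also higher but the interval held the background. A difference was not resolved there.

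**Figure D2:**
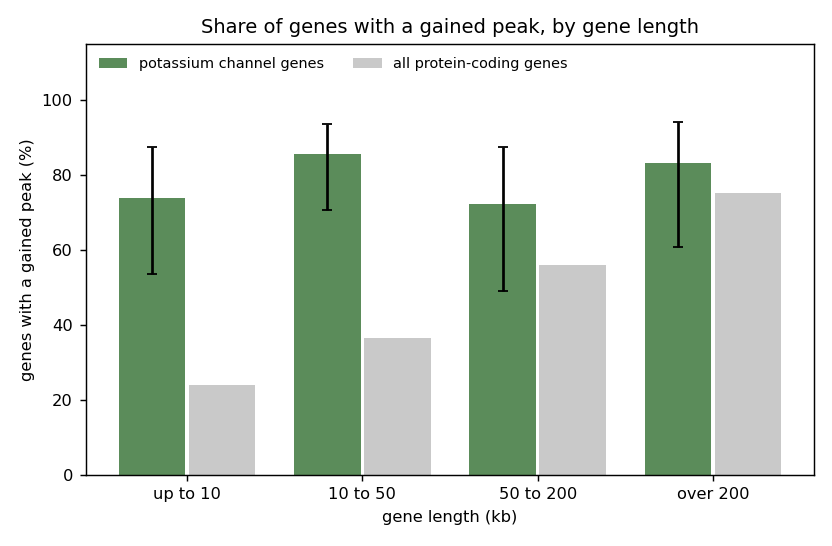
Share of genes (%) with at least 1 gained peak in 4 classes of gene length (kb), for potassium channel genes (green, with Wilson 95% intervals) and all protein-coding genes (grey). The green bars lie between 72.2% and 85.7% in every class, whereas the grey bars rise from 23.9% to 75.3%.

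Counting only peaks within 10 kb of a gene body, and dividing by the length of these regions, gave 9.72 gained peaks per Mb at potassium channel genes (119 peaks, exact Poisson 95% interval 8.05 to 11.6). All protein-coding genes together had 6.78 per Mb (6.64 to 6.93). Lost peaks over all lengths were sparser at potassium channel genes, with 0.572 per Mb (0.23 to 1.18) against 1.41 (1.34 to 1.47). By gene length, the share of genes with an assigned lost peak was 8.7% (2.42 to 26.8) up to 10 kb against 4.19% of all genes, and 14.3% (6.26 to 29.4) from 10 to 50 kb against 7.42%. It was 5.56% (0.988 to 25.8) from 50 to 200 kb against 22%, and 27.8% (12.5 to 50.9) above 200 kb against 47.8%, so every interval included the background. For genes up to 10 kb the gained density was 21.8 per Mb (11.6 to 37.3) against 8.54 (8.08 to 9.01), and from 10 to 50 kb it was 27.6 (19.9 to 37.1) against 9.14 (8.83 to 9.46). From 50 to 200 kb it was 10.4 (6.52 to 15.7) against 7.4 (7.15 to 7.65), and above 200 kb 5.37 (3.89 to 7.23) against 4.65 (4.45 to 4.85). In both of these longer classes the intervals overlap.

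Calcium and sodium channel genes and synaptic receptor genes were counted in the same way. Of 44 calcium, sodium and pacemaker channel genes, which drive the upstroke and automaticity of the heartbeat as well as neuronal firing, 34 had a gained peak (77.3%, 63 to 87.2), at a median length of 97.3 kb. Of 46 glutamate and GABA receptor genes, which are synaptic, 25 had one (54.3%, 40.2 to 67.8), at a median length of 130 kb. Of all protein-coding genes of 50 to 200 kb, 56.1% had one, which is within the interval of the receptor set and below that of the calcium and sodium set. Gained peaks per Mb were 12.5 (10.1 to 15.3) in the calcium and sodium set and 3.54 (2.59 to 4.73) in the receptor set. The potassium channel value of 9.72 (8.05 to 11.6) lay between them and its interval overlapped that of the calcium and sodium set. The 3 sets differ in gene length, and the 5.37 per Mb (3.89 to 7.23) of potassium channel genes above 200 kb overlapped the receptor set.

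The voltage-gated family, with 40 genes, held 78 gained and 6 lost peaks, and 33 of its genes had a gained peak. This share was 82.5%, beside 80% of inward rectifier, 85.7% of tandem-pore, 75% of calcium- or sodium-activated and 70.6% of auxiliary genes. The interval of every family included the 79.8% of all 94 genes, so no family stood apart. The share over all protein-coding genes was 37.4%. Among delayed rectifiers, Kcnh2, the pore of the rapid current that ends the ventricular action potential, had 6 gained peaks over a stretch that began 59822 bp downstream of its nearest TSS. Their scores were 246, 58, 101, 171.5, 414 and 159.5 along the chromosome. The highest covered a TSS inside the gene, 22013 bp from its most upstream TSS, and the peak of 171.5 lay 230 bp from another internal TSS. No Kcnh2 gained peak was at the most upstream start.

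Kcnq1, the pore of the slow delayed rectifier, had 5 gained peaks with scores of 314.5, 85, 94.5, 118.5 and 50. The first covered a TSS near the start of the gene. The next 3 were intronic, up to 286191 bp from the nearest Kcnq1 TSS, and the last lay 2178 bp outside the gene. That of 85 was within 3 kb of a TSS of a gene that is not protein-coding. Cdkn1c had the nearest protein-coding TSS to the peaks of 118.5 and 50, at 63776 and 29941 bp. Kcne1, the partner of Kcnq1, had 1 gained peak of 65.5, which lay 2592 bp from the Kcne1 TSS. Kcna5, the ultrarapid atrial rectifier, had 4 gained peaks of 24.5, 128.5, 69.5 and 50, and all of them were intergenic and at least 34390 bp outside the gene. Kcna5 lies beside Kcna1 and Kcna6 on chromosome 6, and the 3 gained peaks of Kcna1 and 2 of Kcna6 were also outside the gene bodies. Both genes encode axonal subunits.

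The transient outward subunits Kcnd2 and Kcnd3 had 2 and 4 gained peaks. All were intronic, between 51630 and 388413 bp from a TSS of the gene, with scores from 33 to 68.5. The Kcnd2 peak of 36 had a nearer TSS of Tspan12, at 247762 bp. Kcna4, which carries a slower transient outward current, had 1 gained peak of 39 and 2 lost peaks of 37 and 34.6. The lost peaks of Kcna4 lay 228108 and 798923 bp from its TSS, with no protein-coding TSS closer. Kcnd1, a relative of Kcnd2, had its single gained peak of 144 over a TSS.

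Among voltage-gated genes known from neurons, Kcnc1 and Kcnh7 had 4 gained peaks each. Kcnc1, a subunit of fast-spiking neurons, had scores of 33.5, 106.5, 182 and 81.5, none closer than 9612 bp to its TSS. Kcnh7, an erg-type relative of Kcnh2, had a peak of 116 over a TSS and 3 distant peaks of 38, 44 and 55. Kcnq3, a subunit of the M-current that restrains repetitive firing, had 3 gained peaks of 138, 40 and 81.5. Kcnq5, a relative with the same role, had a gained peak of 29.5 and a lost peak of 17.4 in its introns. Khdc1b had the nearest protein-coding TSS to this gained peak.

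Modifier subunits, which do not form channels alone, had peaks as well. Kcng1 and Kcng2 had 4 gained peaks each. Scores were 109, 48.5, 45 and 67.5 at Kcng1, and 191, 148.5, 55.5 and 55.5 at Kcng2. The Kcng2 peak of 191 lay 6937 bp outside the gene, and Pqlc1 had the nearest protein-coding TSS. Kcng1 also had a lost peak of 36.6, 10934 bp from its TSS. Kcns1 (70) and Kcnv2 (37) had 1 gained peak each, over a TSS in both cases.

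Of 15 inward rectifier genes, 12 had gained peaks, 28 in all. Kcnj12 and Kcnj2 encode subunits of the current that holds the resting potential of cardiomyocytes. The 5 gained peaks of Kcnj12 scored 38.5, 182.5, 75, 66 and 53. The Kcnj12 peaks lay from 18201 bp upstream of the gene to 20142 bp beyond its end. Kcnj2 had 3 gained peaks of 35, 25 and 157.5, which lay 46178, 690057 and 777608 bp from its TSS, and 1 lost peak of 24.7 at 11858 bp. All Kcnj2 peaks were therefore outside the 10 kb window and rested on the nearest TSS alone.

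Kcnj3, a subunit of the acetylcholine-gated atrial channel, had an intronic gained peak of 42.5, whereas its partner Kcnj5 was the only gene of the cardiac list with no peak of either kind. The ATP-sensitive subunits Kcnj8 and Kcnj11 had 1 gained peak each, of 72.5 and 78.5. That of Kcnj11 was 2210 bp from the TSS of Nomo1, a neighbour. Kcnj6, a G-protein-gated channel of neurons, had 8 gained peaks inside its gene body of 249 kb, with scores of 311, 68, 80.5, 46, 54.5, 117.5, 45 and 79.5. One was far above the rest. Kcnj15 had 2 distant gained peaks of 42 and 31 and an intronic lost peak of 52.

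Of 14 tandem-pore genes, which carry background currents, 12 had gained peaks. Kcnk3, an acid-sensitive subunit expressed in atrium and conduction tissue, had 4 gained peaks of 88, 233.5, 184 and 109, of which the second lay just upstream of the gene. The mechanosensitive Kcnk2 had 2 gained peaks of 24.5 and 103.5 and 2 lost peaks of 36.1 and 82. The Kcnk2 lost peak of 82 lay 73 bp from a TSS of the gene, and the other 14 lost peaks were all more than 3 kb from such a site. Kcnk5 had gained peaks of 52.5 and 63.5 and a lost peak of 50.2.

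Among 8 calcium- or sodium-activated genes, 6 had gained peaks. Kcnma1, the large-conductance channel of smooth muscle and neurons, had 4 gained peaks of 39, 26, 52 and 145.5 and an intronic lost peak of 43. Its highest gained peak covered a TSS. Kcnn1, a small-conductance channel, had the single peak of 296.5 described above, and Kcnn2 had a single gained peak of 131 over a TSS. Kcnt2, a sodium-activated channel, had 3 intronic gained peaks of 49, 26 and 55, and a lost peak of 22 that was 1495410 bp away.

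Of 17 auxiliary genes, 12 had gained peaks, 23 in all. Kcnip2, the partner that brings Kcnd channels to the cardiomyocyte membrane, had 4 gained peaks of 189.5, 229.5, 38 and 77.5. The first and second lay 386 and 34 bp from TSSs of the gene, and the others upstream of it. Kcnip3 had 4 of 66, 475, 39 and 205, and 2 of these were at start sites. Kcnip1, a neuronal relative, had 6 intronic gained peaks of 146.5, 55.5, 46, 140.5, 190.5 and 32.5. Of these, the peaks of 140.5, 190.5 and 32.5 were also assigned to Kcnmb1, a beta subunit of smooth muscle channels that lies within the same stretch, and Kcnmb1 had the nearest TSS to all 3. The peak of 190.5 lay 127 bp from the Kcnmb1 TSS and 29698 bp from a Kcnip1 TSS, and it and the peak of 32.5 overlapped Kcnmb1 UTRs. Kcne1l had a gained peak of 126.5 over its TSS, and Kcnh4, a voltage-gated gene, one of 114.5. Kcne4, an inhibitory subunit, had a distant gained peak of 50.5 and a lost peak of 29.1. Kcnab1, a cytoplasmic beta subunit, had only its intronic lost peak. Kcnrg, which hinders assembly of voltage-gated channels, had a gained peak of 362.5 that was 74958 bp from its TSS, within 3 kb of a TSS of a gene that is not protein-coding.

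Gained peaks were then compared between 15 genes known for cardiac currents and 28 known mainly from neurons, since the deletion was in cardiomyocytes. A gained peak was assigned to 14 of 15 cardiac genes (93.3%, 70.2 to 98.8) and to 21 of 28 neuronal genes (75%, 56.6 to 87.3). Both shares were above the background of 37.4%, which is over genes of all lengths. Above 200 kb, 75.3% of all genes had a gained peak, and so did 9 of 11 neuronal and 3 of 3 cardiac genes. Over all lengths, the neuronal share was 18.3 percentage points below the cardiac one. The Newcombe 95% interval of the difference was from -37.5 to 7.89, so a difference was not resolved. Restricting peaks to 10 kb around the gene body turned the sign, with a difference of 1.19 points (-24.7 to 29.9). Neuronal genes without a peak of either kind were Kcna2, Kcnc2, Kcnh5, Kcnip4, Kcns2, Kcnt1 and Kcnv1. Among them Kcnip4 is the longest of the 94 genes, at 1135 kb.

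Genes with 3 or more gained peaks numbered 8 in each list, which was 53.3% of the cardiac and 28.6% of the neuronal genes (difference -24.8 points, -50.4 to 4.92). A gained peak over a TSS was present at 2 cardiac genes, Kcnh2 and Kcnq1, and at 3 neuronal genes, which included Kcnh7 and Kcnn2. Over all potassium channel genes it was present at 13, and the background of that count was 3.94%. Lost peaks were assigned to 2 cardiac genes, Kcna4 and Kcnj2, and 3 neuronal genes, Kcna6, Kcnq5 and Kcnt2. The lost peak of Kcna6 scored 44.1 and lay 6293 bp upstream of the gene.

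The neuronal genes were longer, with a median of 57.1 kb against 29.6 kb. Per Mb within 10 kb of the gene body, cardiac genes had 15 gained peaks (26 peaks, 9.77 to 21.9) and neuronal genes 6.86 (42 peaks, 4.95 to 9.28), and the intervals did not overlap. Without the genes well known in both heart and brain the densities were 22.7 (14.2 to 34.4) and 6.65 (4.68 to 9.16). Without the gene with the most peaks in each list, Kcnh2 and Kcnj6, the densities were 13 (8.17 to 19.7) and 5.81 (4.03 to 8.12), and these intervals did not overlap. With Kcnh2 alone left out, the cardiac interval overlapped that of all neuronal genes. Cardiac genes had no lost peak in these regions, which allows up to 2.12 per Mb, and neuronal genes had 0.327 per Mb. Within each length class, however, the cardiac and neuronal intervals overlapped. From 10 to 50 kb the densities were 38.7 and 25.2 per Mb, and above 200 kb they were 9.85 and 5.06. For genes up to 10 kb and from 50 to 200 kb the neuronal density was the higher one, at 14.9 against 9.59 and 10.3 against 5.49.

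**Figure D3:**
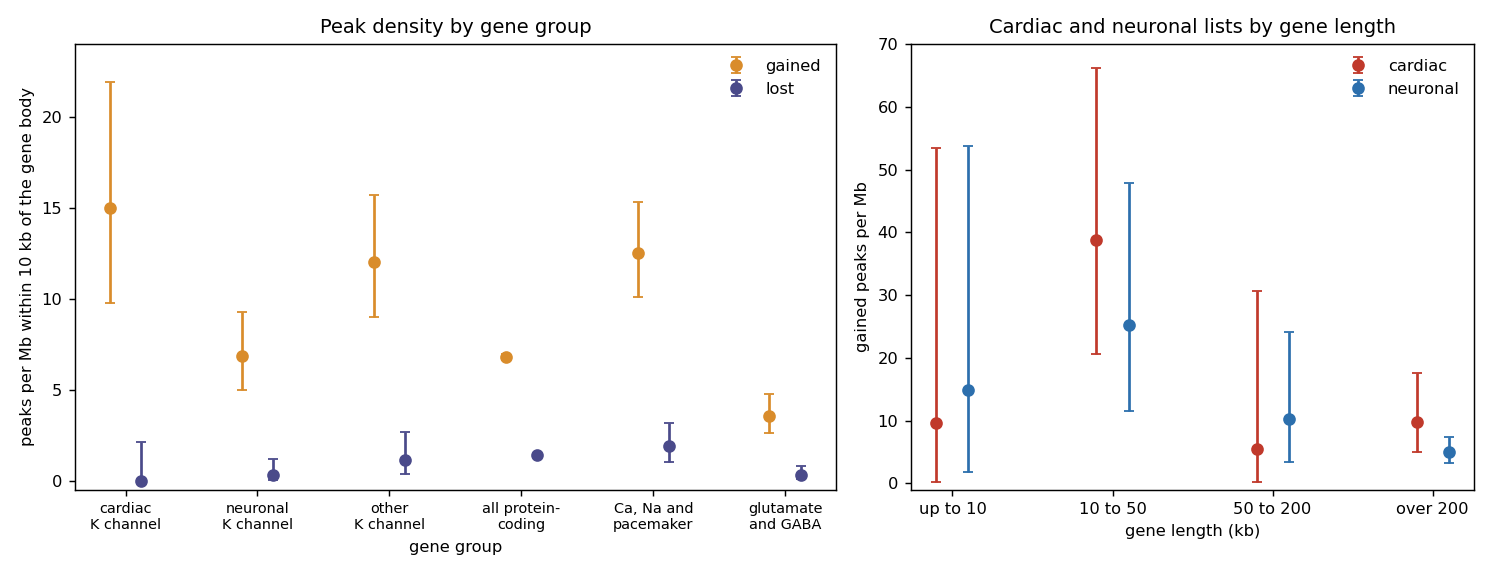
Left, gained (orange) and lost (blue) peaks per Mb within 10 kb of the gene body, for 3 lists of potassium channel genes, all protein-coding genes and 2 like sets. Right, gained peaks per Mb of the cardiac and neuronal lists by gene length (kb). Bars are exact Poisson 95% intervals. Cardiac genes stand at 15 per Mb and neuronal genes at 6.86, close to the 6.78 of all genes, and within every length class the cardiac and neuronal intervals overlap.

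Gained peaks at potassium channel genes were spread over promoters and introns. Of 160, 53 lay within 3 kb of any annotated TSS (33.1%, 26.3 to 40.7), beside 30.9% of all gained peaks. With a 10 kb window it was 51.2%, beside 54.9% of all, and in the upper part by score 51.8%, beside 42.7%. Introns held 38.1% against 33% and intergenic sequence 25% against 32.1%. Only 38 were within 3 kb of a TSS of the potassium channel gene itself, at 31 genes, whereas 38 were more than 50 kb away. The background of genes with a gained peak within 3 kb of their own TSS was 12.4%. Within 3 kb of a TSS of another protein-coding gene were 8 gained peaks, including those of Kcnj11 and Kcnab3. The peak of Kcnab3, a beta subunit, covered the Rnf227 TSS.

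Intergenic sequence held 16 of 42 gained peaks of cardiac genes (38.1%) and 9 of 53 of neuronal genes (17%), a difference of -21.1 points for neuronal minus cardiac genes (-38.1 to -3.19). This was the only one of the 14 peak properties compared between the lists whose interval left out 0, and the 3 intergenic peaks of Kcnj2 and 4 of Kcna5 were among the cardiac ones. The median distance to the gene's own TSS was 26808 bp for cardiac and 29702 bp for neuronal genes. Peaks with a score at or above the median of the gained list were 61.9% of the cardiac and 47.2% of the neuronal ones (difference -14.7 points, -33 to 5.29). Mean GC content was 58.7% ± 9.28 (SD, n = 160 peaks), beside 56.7% ± 8.55 for all gained peaks. In the lost peaks it was 49.7% ± 3.69 (SD, n = 15), beside 50.5% ± 5.85 for all lost peaks.

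**Figure D4:**
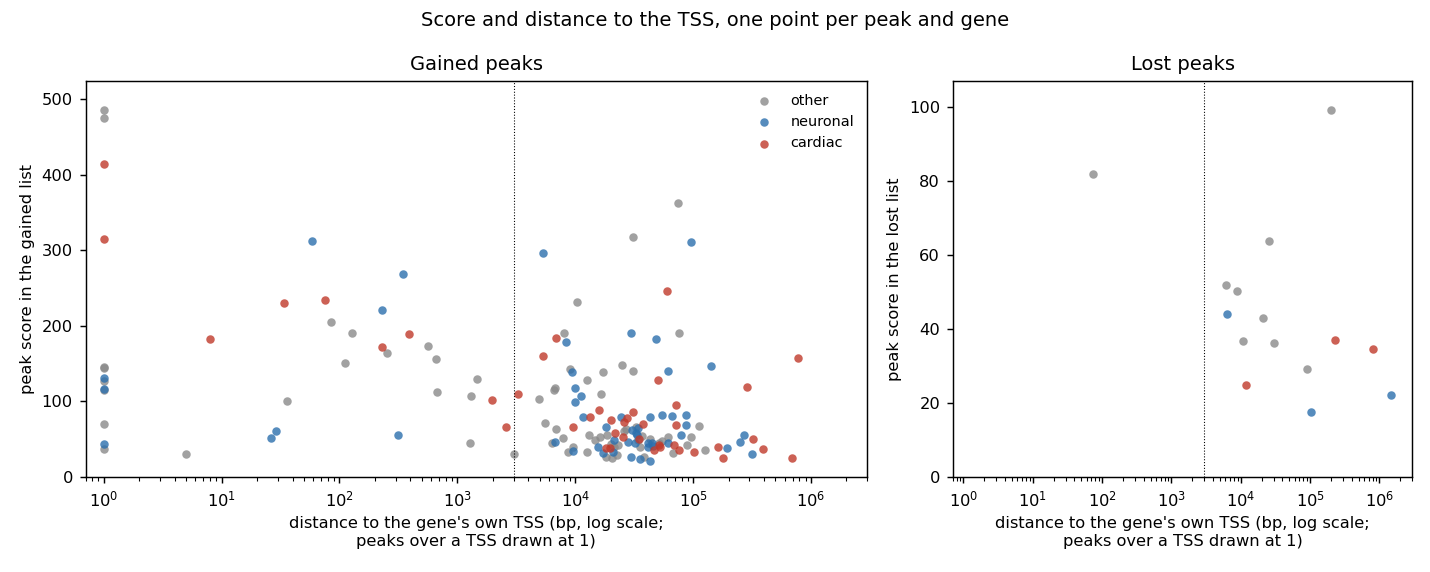
Score of each gained (left) and lost (right) peak against the distance (bp, log scale) to the nearest TSS of the gene it was assigned to. The dotted line marks 3 kb, and colours give the cardiac, neuronal and other lists. The 2 highest gained scores, 485.5 and 475, are at a TSS, but scores above 300 also occur beyond 30 kb, and only 1 lost peak lies within 3 kb.

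Consensus strings were counted on both strands of the peaks. The strings were CTA and TAG with any 4 bases between them for MEF2, AGATAAG for GATA factors, ACATTCC for TEAD, GGTGTGA for T-box factors, TNAAGTG for NKX2-5, CAGCTG for an E-box, CCAAT for NFY, GGGCGGG for KLF and SP factors, TGANTCA for AP-1 and GGACAGC for part of the site of REST, a repressor of neuronal genes. The E-box and REST strings can overlap. A GATA string occurred in 15 of 160 gained peaks (9.38%, 5.76 to 14.9), beside 5.45% of all gained peaks. It was in 6 of the 42 peaks of cardiac genes and 5 of the 53 of neuronal genes. The cardiac ones were 2 peaks each of Kcnip2 and Kcnj12 and 1 each of Kcnh2 and Kcnd3.

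The KLF/SP string occurred in 20% of the gained peaks, beside 15.8% of all. Of 12 gained peaks chosen by score (5 of cardiac, 5 of neuronal and 2 of other genes), 9 held it, with 20 matches between them, up to 4 in the peaks of Kcnk3 and Kcnn1. The 10% of all gained peaks with the highest scores held it in 46.2%, and all gained promoter peaks in 28.7%. The NFY string was found in 25.6% against 29.3%, and the E-box in 16.2% against 13.2%. The other strings each occurred in 5% of these gained peaks or fewer. They were MEF2 (4.38% against 3.86%), T-box (4.38% against 4.3%), AP-1 (5% against 5.08%), REST (5% against 4.57%), NKX2-5 (5% against 6.87%) and TEAD (1.88% against 3.76%). Of the 10 strings, only GATA had an interval that left out the share over all gained peaks. Its lower limit of 5.76% was close to that share of 5.45%, and no correction was made for the number of strings. The REST string was in 2 peaks of neuronal genes and in no peak of a cardiac gene. A match describes letters and does not show that a factor was bound.

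**Figure D5:**
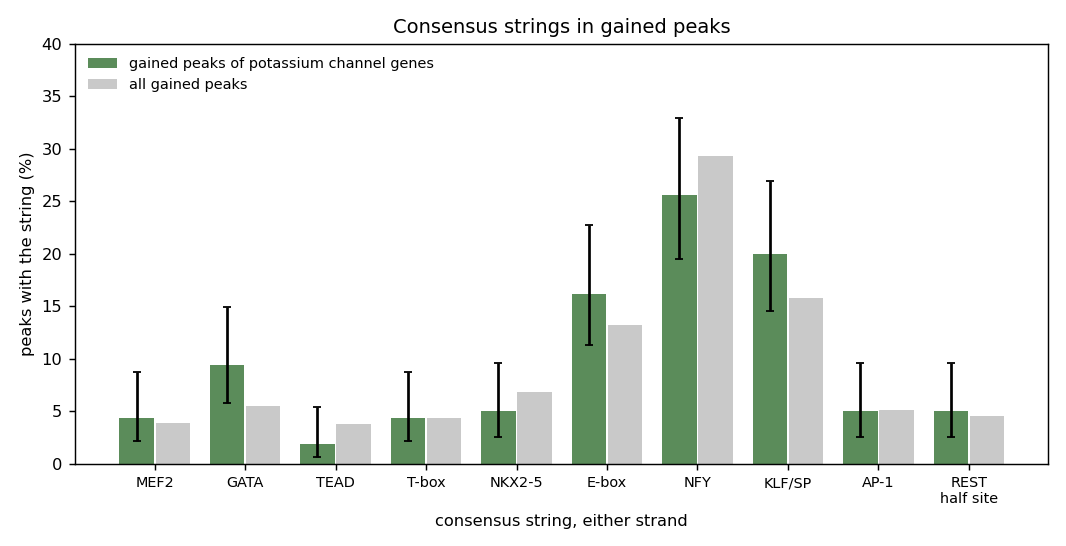
Share of gained peaks (%) holding each of 10 consensus strings, for potassium channel genes (green, 160 peaks, Wilson 95% intervals) and for all gained peaks (grey). GATA stands at 9.38% against 5.45%, and the other intervals include the grey bar. The intervals are not corrected for the number of strings.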

How the data were processed

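ATAC-seq libraries from 8 pools of dissociated E10.5 hearts (4 WT, 4 Chd4-CMko) were sequenced by the study. Per the labels and the study's methods, the authors used BWA-MEM for alignment (mm10), HOMER v4.10.3 for peak calling and ChIPseeker v1.20.0 for annotation. Whether reads were shifted for the Tn5 offset is not given in the sources used here. The deposited files are 2 peak lists of 151 bp regions (1 is shorter), each with a score of unstated scale, and peaks were called on samples combined, so neither the reads behind a peak nor replicate error can be given from them. The study's methods state a depth per sample and a fold limit for differential peaks, which could not be checked on the lists.

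Peaks were assigned to genes with GENCODE M21 on GRCm38.p6 (mm10), and sequences were read from the same assembly. Promoter means within 3 kb of any annotated TSS, and windows of 1 and 10 kb were tried. Shares have Wilson and differences Newcombe 95% intervals, and peaks per Mb have exact Poisson 95% intervals, computed with Python 3.11.15, pandas 2.3.3, scipy 1.17.1 and statsmodels 0.14.6. Assignment, string search and intervals were tested on simulated data.

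The genes, the cardiac and neuronal lists and the strings were chosen with earlier results of these data known, the lists from textbook roles. Genes were named if they had a lost peak, were among the 10 with most gained peaks, had one of the 10 highest gained scores, led their family, were cardiac or neuronal with a gained peak over a TSS, or were cardiac without a peak. Some items that meet this rule are not reported here. Others were named by role after their values were seen. Alternatives changed the assignment rule, windows, score limits and gene lists.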

Additional observations from a re-analysis of the deposited data

How the results depend on the processing

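Each alternative changed 1 choice, and of 46 values 8 moved by more than the limit set for them, all given here. With peaks inside the gene body alone, 46 genes had a gained and 6 a lost peak. With peaks within 10 kb of the body alone, 7 genes had a lost peak, and with the upper part of either list by score, or a common score limit at the lost median, 8. The last limit gave 6.1% of all genes, and at it 71 genes had a gained peak, beside 33.1%. Promoters held 51.2% of gained peaks with a 10 kb window and 51.8% in the upper part by score. Cardiac genes had 22.7 gained peaks per Mb without genes well known in both heart and brain. The neuronal minus cardiac share, counted among the other 38, changed sign with peaks within 10 kb alone and ranged from -22.4 to 1.19 percentage points, and every interval included 0. Leaving out peaks within 3 kb of a TSS of another protein-coding gene, an alternative chosen after seeing the data, left 70 genes with a gained peak (74.5%), beside 33.3% of all genes. No paired analysis was possible because the lists hold no value per sample, and leaving out replicates was not possible for the same reason.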
